A study of Mus musculus with 2 samples.

Results

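The 10 genes described here are markers of cell types that a culture of gut mesenchyme is not meant to hold. They comprise 5 simple keratins (Krt7, Krt8, Krt18, Krt19 and Krt20), 3 genes that mark mesothelium (Msln, Upk3b and Wt1) and 2 genes of epithelial adhesion (Cdh1 and Epcam). They were taken by gene symbol from a table of 37309 genes, and each symbol occurs there once. All 10 had at least 1 read in at least 1 library, but only Krt20 reached a level of 1 when scaled to exon length and library size (the unit RPKM), and it did so only in the non-supportive library.

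The study sequenced RNA from cultured intestinal subepithelial myofibroblasts (ISEMFs), the contractile mesenchymal cells that lie beneath the crypt epithelium. The supportive ISEMFs were grown from the small intestine of 5-day-old wild-type C57BL/6 neonates and sustained enteroids in co-culture without added R-spondin, the Wnt agonist of crypt cultures. The non-supportive ISEMFs were grown in the same way from 2-month-old wild-type C57BL/6 mice and supported enteroids weakly in that condition. Both were expanded in a serum-containing medium with insulin, transferrin and EGF, and each population is represented by 1 library. Mouse age, the isolation and the ability to support enteroids therefore change together and cannot be told apart, and no spread between replicates can be estimated. The name of the deposited table gives the supportive library the code P16 and the non-supportive library the code P3. The sources used here define neither code nor the passage of the sequenced cells, so a difference in passage cannot be told apart from the others.

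Keratins are the intermediate filament proteins of epithelia. A filament is built from pairs of an acidic type I and a basic type II chain, so a simple epithelium needs members of both types. Krt8 (type II) and Krt18 (type I) are the basic pair of simple epithelia, Krt19 (type I) and Krt7 (type II) are added in many ducts and glands, and Krt20 (type I) belongs to the differentiated cells of the intestinal surface. Cdh1 encodes E-cadherin, the calcium-dependent adhesion molecule of epithelial junctions, and Epcam encodes a glycoprotein of the basolateral membrane. Mesothelium, the lining of the gut's outer surface and of the body cavities, is mesodermal yet makes simple keratins, mesothelin (Msln), uroplakin 3b (Upk3b) and the zinc finger factor Wt1. Fibroblasts and smooth muscle instead build their filaments from vimentin and desmin.

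The promoter sequences of Krt20 and of its usual companions Krt8, Krt18 and Epcam are shown first. In the non-supportive library the counted level of Krt20 exceeded theirs by large factors, and whether the promoter sequences bear on this was not tested. Promoters of 6 of the 10 genes were found in the RefSeq table for GRCm38.p6 (Krt7, Krt8, Krt18, Krt20, Upk3b and Epcam). Krt19, Msln, Wt1 and Cdh1 had no entry. Each sequence runs 5′ to 3′ on the gene's strand from 250 bases before the annotated start to 50 bases after it, at chr11:99438104-99438403 (minus strand) for Krt20, chr15:102004293-102004592 (minus) for Krt8, chr15:102027966-102028265 (plus) for Krt18 and chr17:87635729-87636028 (plus) for Epcam. Capitals mark matches on either strand to TATAAA, the core of a TATA box, to CACCTG, the E-box that Snai and Zeb repressors bind in the Cdh1 promoter, and to TTTATG, a core recognised by the intestinal factors Cdx1 and Cdx2.
Krt20: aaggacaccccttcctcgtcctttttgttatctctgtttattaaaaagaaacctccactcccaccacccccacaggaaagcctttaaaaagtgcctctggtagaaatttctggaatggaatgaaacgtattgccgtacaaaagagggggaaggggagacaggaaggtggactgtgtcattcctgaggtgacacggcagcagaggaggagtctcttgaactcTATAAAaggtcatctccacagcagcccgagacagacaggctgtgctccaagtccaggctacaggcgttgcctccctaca
Krt8: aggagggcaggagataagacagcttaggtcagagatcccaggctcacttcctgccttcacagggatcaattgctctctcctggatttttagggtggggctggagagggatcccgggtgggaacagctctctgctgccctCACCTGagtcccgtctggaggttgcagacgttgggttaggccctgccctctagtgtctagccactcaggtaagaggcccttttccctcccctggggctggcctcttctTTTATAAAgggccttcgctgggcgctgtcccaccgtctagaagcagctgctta
Krt18: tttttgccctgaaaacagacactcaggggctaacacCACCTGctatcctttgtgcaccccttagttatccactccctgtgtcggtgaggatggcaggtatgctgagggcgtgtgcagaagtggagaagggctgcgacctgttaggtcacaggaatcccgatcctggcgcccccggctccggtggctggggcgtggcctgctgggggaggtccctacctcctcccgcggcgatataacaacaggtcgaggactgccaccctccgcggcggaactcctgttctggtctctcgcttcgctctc
Epcam: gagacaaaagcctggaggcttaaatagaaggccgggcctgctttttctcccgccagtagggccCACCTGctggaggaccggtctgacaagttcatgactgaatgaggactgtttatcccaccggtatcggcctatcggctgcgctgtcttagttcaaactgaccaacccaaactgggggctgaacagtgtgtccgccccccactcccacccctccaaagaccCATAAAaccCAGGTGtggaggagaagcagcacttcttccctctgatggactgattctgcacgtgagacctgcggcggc
TATAAA began 29 bases before the Krt20 start. In Krt8 it lay at the annotated start itself, where the run in capitals also contains the match on the opposite strand. CACCTG began 111 bases before the start of Krt8 and 214 bases before that of Krt18, and Epcam held it at 187 bases and, on the opposite strand, at 19 bases. Epcam also held TTTATG on the opposite strand at 28 bases. Among the other promoters found, Krt7 held CACCTG at 44 bases and Upk3b held none of these motifs. Such matches are common: of 32851 mouse promoters of this length, 13.6% contained TATAAA, 20.2% CACCTG and 11.9% TTTATG. A match describes the letters in the window and is not evidence that a factor binds there.

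Reads on genes numbered 50674472 for supportive and 49615497 for non-supportive ISEMFs, and the 2 were scaled by library sizes of 71463423 and 69449374 reads. At this depth 1 read in a gene such as Krt20 is worth an RPKM of 0.00726 in the supportive library, so levels far under 1 RPKM could be seen but rest on few reads. The myofibroblast label was checked against its marker genes. Where a pair of values follows a gene name below, the first is from the supportive and the second from the non-supportive library. All 9 myofibroblast identity genes had at least 1 RPKM in one library or both, and smooth muscle actin (Acta2, 908 RPKM in supportive and 1410 RPKM in non-supportive ISEMFs), vimentin (Vim, 325 and 407), transgelin (Tagln, 206 and 360) and type I collagen (Col1a1, 317 and 288) did not pass 2-fold. The collagen genes Col3a1 (272 and 26.4) and Col1a2 (286 and 41.6) and the receptor gene Pdgfrb (28.1 and 7.67) were higher in supportive ISEMFs, and Pdgfra (3.37 and 12.1) and Des (0.575 and 3.40) were lower (median log2 ratio of the 9 -0.33). The non-supportive library also held macrophage transcripts, with a summed RPKM of 129 over 10 genes against 9.56 in the supportive library. Together the 10 marker genes drew 211 reads from supportive and 585 from non-supportive ISEMFs. In bulk RNA, a few cells with a high level and many cells with a low level cannot be told apart.

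Within these reads each library was dominated by a different gene. In the non-supportive library Krt20 made 71.6% of the reads on the 10 genes, and in the supportive library Cdh1 made 75.4%. A gene was counted as different where its RPKM reached 1 in at least 1 library and the ratio, with 0.1 added to both values, passed 2-fold. By this rule 1 of the 10 genes differed, Krt20, and it was lower in supportive ISEMFs. Across all genes, 18.3% of the 10086 genes with that level passed 2-fold in either direction, and 9.27% did so in the direction of Krt20. With 1 gene at this level, the share says nothing about the 10 genes as a group.

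**Figure D1:**
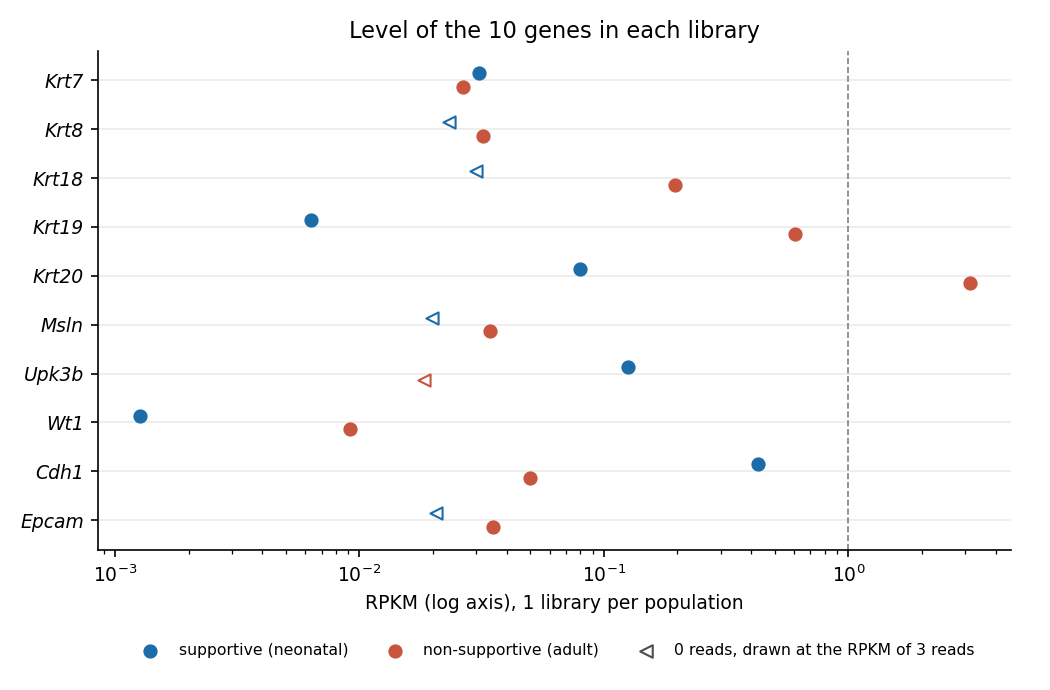
RPKM of each of the 10 genes (log axis) in the supportive library (blue) and the non-supportive library (red), 1 library each, with open triangles at the RPKM of 3 reads where a gene had 0 reads and a dashed line at 1 RPKM. Krt20 in the non-supportive library, at 3.13, is the only point to the right of the line, and Cdh1 and Upk3b are the genes with clearly more signal in the supportive library.

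Krt20 had 11 reads (0.0799 RPKM) in supportive ISEMFs, against 419 reads (3.13 RPKM) in non-supportive ISEMFs. It was 39.2-fold higher in non-supportive ISEMFs, with a 95% exact interval of 21.7 to 79.1. This interval, like those that follow, comes from the binomial share of reads (Clopper-Pearson) and covers counting error only, not variation between cultures or mice. On the scale with 0.1 added, the log2 ratio of supportive over non-supportive was -4.17, against a median of -0.07 over all genes at 1 RPKM or more, and 69 of the 10086 genes at this level (0.684%) had a ratio as low or lower. In the non-supportive library Krt20 stood above 75.4% of protein-coding genes, against 45.6% in the supportive library. It was still a minor transcript, at 0.769% of the vimentin RPKM. Krt20 lies on chr11:99289717-99299464 (mm9, minus strand) within the type I keratin cluster, and no other annotated gene overlaps it. The nearest annotated genes on either side, the non-coding A830036E02Rik (2905 bases away) and Krt23 (39823 bases away), had 0 reads in both libraries.

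Krt19, which lacks the tail domain of other keratins, followed the same direction at a lower level. Supportive ISEMFs gave 1 read (0.00635 RPKM) and non-supportive ISEMFs gave 93 reads (0.607 RPKM). The ratio was 95.7-fold in favour of non-supportive ISEMFs, but a single read sets one side of it and the interval runs from 16.8 to 3820. Krt15, the adjacent keratin 4860 bases from Krt19 (chr11:100002124-100009979, minus strand), had 0 and 5 reads.

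Krt18 and Krt8, the pair that a simple epithelium makes first, were nearly silent in both populations. Krt18 had 0 reads in supportive and 19 reads (0.195 RPKM) in non-supportive ISEMFs. With the supportive library set at 3 reads this is 6.52-fold higher in the latter, and the counting interval of the ratio begins at 4.802. Krt8 had 0 and 4 reads (0.0319 RPKM in the non-supportive library), 1.37-fold higher at the same floor. The counting interval of this ratio begins at 0.679 and so includes no difference. The genes are neighbours on chromosome 15, 23873 bases apart, with Krt8 at chr15:101827142-101834773 (minus strand) and Krt18 at chr15:101858647-101862457 (plus strand). Eif4b, a translation initiation factor on the far side of Krt18, was at 62.0 and 38.2 RPKM.

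Krt20 was thus detected in the non-supportive library with few counted reads of the pair that usually accompanies it. Its RPKM there was 16.02 times that of Krt18, 98.1 times that of Krt8 and 5.16 times that of Krt19. RPKM is per exon length, so these levels can be set side by side, but only reads that aligned to a unique position were counted, and that does not treat the genes alike.

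Processed pseudogenes of Krt8 and Krt18 are numerous in mammals, so every 50-base window of each gene's exons was looked up in the whole of mm9. For Krt8, 54.5% of windows had an identical copy elsewhere and 88.1% had one within 2 mismatches. Most fell on a single stretch at chr7:24142111-24143830 that overlaps Nlrp4e, a gene with 0 reads in both libraries. Krt18 had 0.740% identical windows and 25.3% within 2 mismatches, the largest block being at chr13:118246579-118247882, where no gene is annotated. For the other 8 genes the share within 2 mismatches stayed under 4%, and for Krt20, Msln, Upk3b and Epcam it was 0. Krt8 is therefore the gene whose level is least certain. Divided by the 11.9% of its windows that match nowhere else, its non-supportive level would be 0.268 RPKM, and 3 reads would stand for 0.195 RPKM in the supportive library. This takes every window with a second match within 2 mismatches as uncounted, which was not tested. The same division gives 0.262 RPKM for Krt18. Both values remain below that of Krt20.

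**Figure D2:**
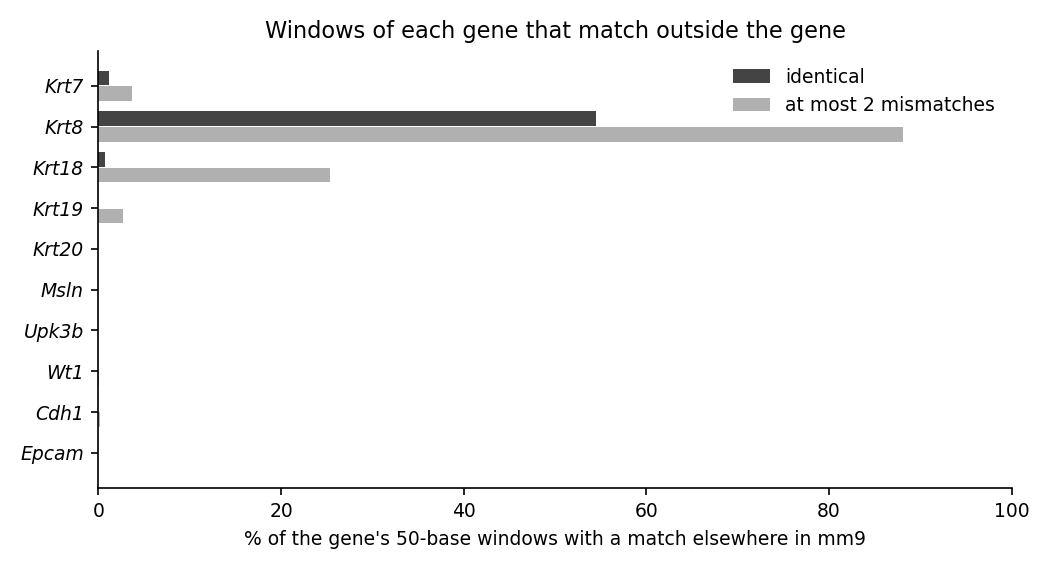
Percentage of each gene's 50-base exon windows that match another place in mm9, as identical sequence (dark bars) or with at most 2 mismatches (light bars). Krt8 stands apart at 54.5% and 88.1%, Krt18 reaches 25.3% with mismatches, and Krt20 has no such window.

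Krt7 was the simple keratin whose levels lay closest together. Supportive ISEMFs gave 18 reads (0.0309 RPKM) and non-supportive ISEMFs 15 reads (0.0265 RPKM). The ratio of 1.17 had an interval of 0.555 to 2.49, which includes equality and a difference of up to that size. The genes around Krt7 (chr15:101241474-101260744, plus strand) were Krt83, with 0 reads, and Krt80, a widely expressed type II keratin with 156 and 40 reads (0.453 and 0.120 RPKM).

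The whole keratin family gives the background to these counts. Of 51 keratin genes in the table, 14 had a read in either library and 37 had none. Reads on all keratins numbered 274 for supportive and 751 for non-supportive ISEMFs, and the 5 simple keratins made 10.9% and 73.2% of them. Krt20 alone gave 11 and 419 of these reads, so the second share rests mostly on 1 gene. The other 46 keratins summed to 1.004 and 1.11 RPKM, none reaching 1 RPKM by itself. Among these, Krt10 (0.490 and 0.828 RPKM, 75 and 123 reads) had the highest level and is named after its values were seen.

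Type I and type II keratins were not balanced in the non-supportive library. The 28 type I genes drew 97 reads from supportive and 692 reads from non-supportive ISEMFs. The 23 type II genes drew 177 and 59. Type I keratins thus made 35.4% of keratin reads in supportive ISEMFs and 92.1% in non-supportive ISEMFs. Summed RPKM was 0.618 for type I and 0.503 for type II in the supportive library, against 4.93 and 0.178 in the non-supportive one. Without Krt20 the type I genes drew 86 and 273 reads. Most of these fell on Krt10 (75 and 123), Krt19 (1 and 93) and Krt18 (0 and 19). The type II sum contains Krt8, of whose windows 54.5% had an identical copy elsewhere, so unique counting could miss much of it.

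**Figure D3:**
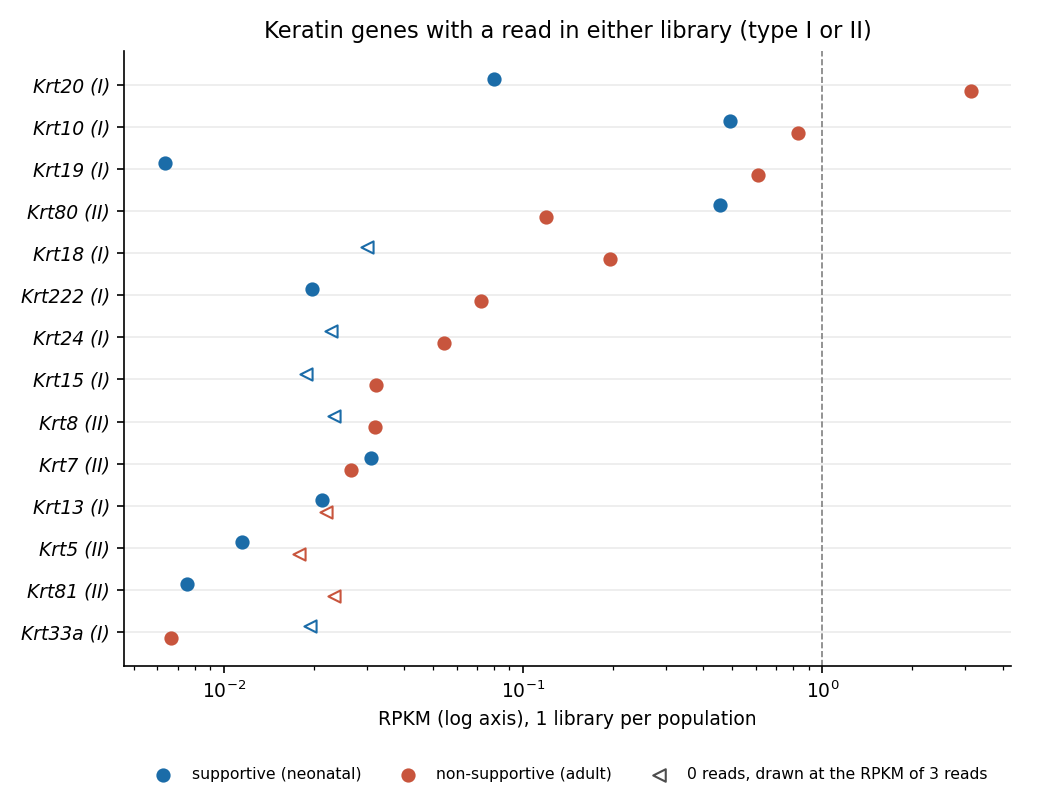
RPKM (log axis) of the 14 keratin genes with a read in either library, ordered by level, with the type in brackets, the supportive library in blue and the non-supportive library in red, and open triangles at the RPKM of 3 reads where there were 0 reads. Krt20, Krt19 and Krt18 lie further right in red than in blue, Krt80 is higher in blue, and Krt20 alone passes the dashed line at 1 RPKM.

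Cdh1 ran opposite to the type I simple keratins. Supportive ISEMFs gave 159 reads (0.427 RPKM) and non-supportive ISEMFs 18 reads (0.0497 RPKM). It was 8.58-fold higher in supportive ISEMFs, with an interval of 5.26 to 14.9, and its log2 ratio with 0.1 added was 1.81. The level was low even where it was higher, above 54.6% of protein-coding genes in supportive and 41.9% in non-supportive ISEMFs. Cdh11, a mesenchymal cadherin, exceeded Cdh1 212-fold in supportive and 701-fold in non-supportive ISEMFs (90.5 and 34.8 RPKM), and N-cadherin (Cdh2) exceeded it 13.2-fold and 172-fold. The P-cadherin gene Cdh3, a close relative of Cdh1, had 22 and 163 reads and was 7.62-fold higher in non-supportive ISEMFs, with an interval of 4.87 to 12.5. Cdh1 (chr8:109127251-109194146, plus strand) and Cdh3 therefore differed in opposite directions. The intestinal cadherin Cdh17 went with Cdh1, at 210 and 23 reads (0.623 and 0.0703 RPKM), 8.87-fold higher in supportive ISEMFs with an interval of 5.76 to 14.3.

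Epcam, at chr17:88035319-88050446 (plus strand), gave 0 reads in supportive and 5 reads (0.0353 RPKM) in non-supportive ISEMFs. With the supportive library set at 3 reads this is 1.72-fold higher in the latter, but the counting interval begins at 0.943 and so includes no difference. The limit in the supportive library is an RPKM of 0.0206. Krt20 in the non-supportive library was thus accompanied by almost no Epcam, and Cdh1 in the supportive library by 0 reads of Epcam.

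The mesothelial genes did not move as a set. Msln, at chr17:25885559-25891272 (minus strand), had 0 reads in supportive and 5 reads (0.0341 RPKM) in non-supportive ISEMFs. At a floor of 3 reads Msln was 1.72-fold higher in the latter, but its counting interval begins at 0.943 and so includes no difference. Wt1, at chr2:104966686-105013773 (plus strand), had 1 and 7 reads (0.00126 and 0.00911 RPKM). Its ratio of 7.20-fold in favour of non-supportive ISEMFs had an interval of 0.925 to 325 and so includes no difference.

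Upk3b went the other way. Supportive ISEMFs gave 21 reads (0.125 RPKM) and non-supportive ISEMFs 0 reads. At a floor of 3 reads Upk3b was 6.80-fold higher in supportive ISEMFs, with a counting interval from 5.06. It lies at chr5:136514366-136521173 (plus strand), and its neighbour Dtx2 was at 0.346 and 0.378 RPKM. The paralogs Upk3a and Mslnl had 0 reads in both libraries and 2 and 0 reads, respectively.

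**Figure D4:**
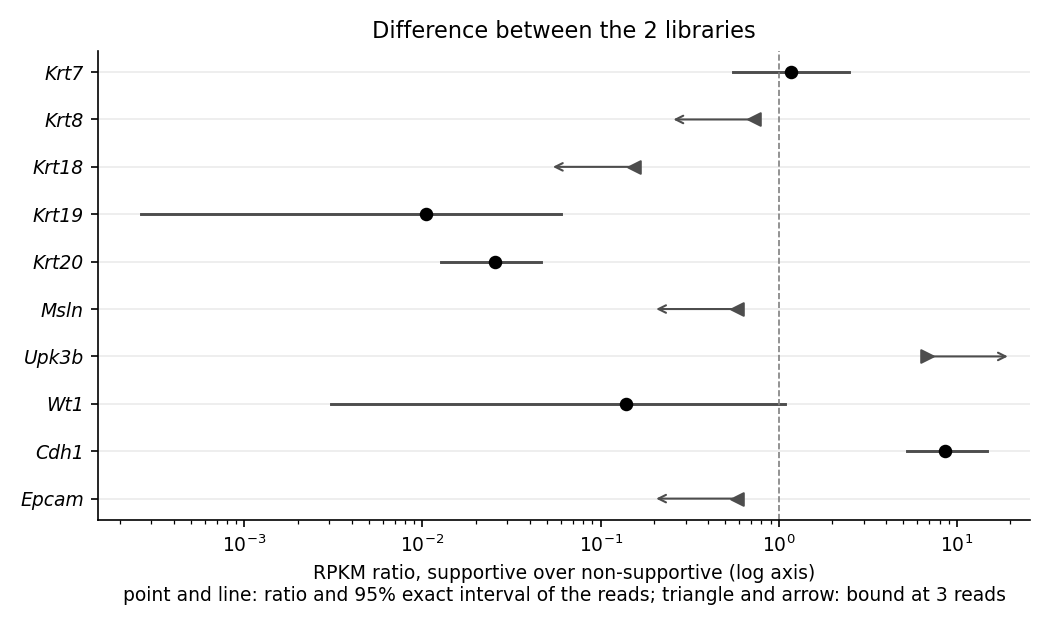
RPKM ratio of supportive over non-supportive (log axis) for each of the 10 genes, as a point with its 95% exact interval for counting error, or as a triangle and arrow at the bound that 3 reads give where a library had 0 reads. Krt18, Krt19 and Krt20 lie left of the line of equality and Cdh1 and Upk3b right of it, while Krt7 and Wt1 have intervals that cross it and Krt8, Msln and Epcam rest on 4 or 5 reads.

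For the 9 genes under 1 RPKM in both libraries, the same 2-fold rule without the minimum gave 4 that differed (44.4%). These were Cdh1 and Upk3b, higher in supportive ISEMFs, and Krt18 and Krt19, lower. Of the 11510 genes in the table with a read but under 1 RPKM in both libraries, 15.8% passed. With 9 genes this is a count and not a test. Over all 10 genes the median log2 ratio with 0.1 added was -0.41, against -0.04 over the 21596 genes with a read in either library. The 10 genes lay on both sides of 0. Without the added 0.1, and with the genes at 0 reads set at their bound, the median of the 10 was -0.78. That value is on another scale and is not set against the -0.04. At levels this low the added 0.1 draws ratios toward 0.

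Cytolinkers and catenins were expressed in both libraries, and the desmosomal cadherins listed reached at most 0.180 RPKM. Of 18 keratin linkers and desmosome genes, 12 were under 1 RPKM in both libraries, 7 had 0 reads in the supportive library and 2 had 0 reads in both. Of the 6 others, which reached 1 RPKM, 1 was lower in supportive ISEMFs and 0 were higher. Their median log2 ratio was -0.35, and 18.3% of all genes at that level passed 2-fold in either direction. The lower one was plakophilin 2 (Pkp2), a desmosomal plaque protein, at 1.56 and 9.08 RPKM (log2 ratio -2.46). The cytolinkers Dst (17.9 and 20.01 RPKM), Macf1 (15.99 and 14.6) and Plec (3.59 and 3.76) did not pass 2-fold. Among the desmosomal cadherins, chosen after their values were seen, Dsc2 had 0 and 100 reads, Dsg2 0 and 5 and Dsc3 0 and 4. Dsc2 was at 0.180 RPKM in the non-supportive library, and its counting interval in favour of that library begins at 27.4. Dsp and Perp, chosen in the same way, went the other way. Dsp had 314 and 98 reads, 3.11-fold higher in supportive ISEMFs with an interval of 2.47 to 3.95. Perp had 101 and 54 reads, 1.82-fold with an interval of 1.29 to 2.58. Of 11 adhesion partners of Cdh1, 9 reached 1 RPKM and none passed 2-fold (median log2 ratio -0.58). The catenins that bind the cadherin tail were abundant, with α-catenin (Ctnna1) at 129 and 108 RPKM and β-catenin (Ctnnb1) at 78.2 and 67.1.

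Among 16 intermediate filament genes other than keratins, 8 reached 1 RPKM, of which 1 was higher and 2 were lower in supportive ISEMFs (median log2 ratio -0.09). Nestin (Nes), a filament protein of progenitors and of developing muscle, was at 6.02 and 42.5 RPKM (log2 ratio -2.80), and desmin (Des), the filament of muscle, at 0.575 and 3.40 (-2.38). Synemin (Synm), which joins filaments of vimentin and desmin, was at 1.22 and 0.0753 RPKM (2.91). Non-supportive ISEMFs therefore held more Krt20, Des and Nes, while Vim, at a log2 ratio of -0.33, did not pass 2-fold.

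Most other epithelial genes were under 1 RPKM. Of 30 genes of epithelial junctions and surface, 26 were under 1 RPKM in both libraries and 7, among them Cldn3, had 0 reads. The highest of the 26 was Cdh17, at 0.623 RPKM. Reads on these low genes differed in both directions, with more in supportive ISEMFs for the claudins Cldn2 (19 and 2) and Cldn15 (29 and 8) and fewer for the protease inhibitor Spint2 (4 and 45) and for Cdh3, of which the claudins and Spint2 were chosen after their values were seen. Of the 4 expressed, F11r, a junctional adhesion molecule, was higher in supportive ISEMFs (26.1 and 6.30 RPKM, log2 ratio 2.03) and claudin 1 (Cldn1) was lower (2.03 and 6.46, -1.62), while the junction scaffold Tjp1 did not pass 2-fold (21.2 and 26.2, -0.31). The median of the 4 was -0.08. Of 25 epithelial transcription and splicing factors, 22 were under 1 RPKM, none of these above 0.184. Cdx1 and Cdx2, which specify intestinal epithelium, had 0 reads in both libraries. The 3 expressed factors were Gata6 (6.15 and 1.76 RPKM, 1.75), Klf5 (0.358 and 1.75, -2.01) and Tcf7l2 (2.17 and 1.58, 0.44), with a median of 0.44.

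Of 32 genes of intestinal epithelial lineages, 28 were under 1 RPKM and none of these passed 0.151, with 0 reads in both libraries for 16, including the enterocyte gene Fabp1 and the goblet cell gene Tff3. The 4 expressed were Lgr5 (7.22 and 0.00443 RPKM), Dclk1 (9.41 and 2.05), Smoc2 (3.62 and 18.3) and Anpep (1.26 and 1.12), with log2 ratios of 6.13, 2.15, -2.31 and 0.15 and a median of 1.15. These 4 are not restricted to epithelium. Villin (Vil1) had 7 and 8 reads and the goblet cell mucin Muc2 27 and 3, both named after their values were seen. Krt20 thus stood above 1 RPKM in a library with few or no reads on the defining genes of enterocytes and goblet cells.

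Of 25 mesothelial genes outside the 10, 7 reached 1 RPKM, with 3 higher and 2 lower in supportive ISEMFs and a median log2 ratio of -0.45. Ildr2 (6.87 and 0.513 RPKM, 3.51) and Gata6 were among the higher, and Tbx18, a T-box factor of mesothelium and mural cells, was among the lower (2.74 and 9.49, -1.76). Podoplanin (Pdpn, 9.40 and 12.9 RPKM) and the sulfatase Sulf1 (9.29 and 14.1) did not pass 2-fold, and fibroblasts make both. Calb2, Gpm6a, Lrrn4 and Muc16 had 0 reads in both libraries. Of 12 genes related to Wt1, 5 reached 1 RPKM and 1, Spry1, differed (14.3 and 2.41 RPKM, 2.52), with a median of -0.07.

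Repressors of Cdh1 were expressed in both populations. Of 15 mesenchymal cadherins and factors of epithelial-mesenchymal transition, 10 reached 1 RPKM, with 3 higher in supportive ISEMFs, 0 lower and a median log2 ratio of 0.36. Snai2 was at 59.0 and 19.8 RPKM (1.57), Zeb2 at 22.6 and 11.8 (0.94) and Zeb1 at 14.5 and 12.7 (0.19), and the other 2 that passed 2-fold were Cdh11 (1.38) and Foxc2 (1.18). Snai2 and Cdh1 were therefore both higher in the supportive library. Snai1 (0.673 and 1.16 RPKM, -0.71) and Twist1 (2.23 and 2.98, -0.40), named after their values were seen, were lower there without passing 2-fold. The fold share for all genes, 18.3%, applies to each of these lists.

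Macrophage genes differed between the libraries in the direction of Krt20. Of 10 such genes, a list written with earlier results of these data known, 8 reached 1 RPKM and all 8 were lower in supportive ISEMFs, with a median log2 ratio of -3.91, where 9.27% of all genes at that level were lower. Summed RPKM was 9.56 for supportive and 129 for non-supportive ISEMFs. Lyz2 was at 6.31 and 72.7 RPKM and Tyrobp at 0 and 29.97, and Emr1, Ptprc and Tyrobp had 0 reads in the supportive library. The part of macrophages in the differences of Krt18, Krt19, Krt20 and Cdh1 was not tested. Mitochondrially encoded genes made 14.6% of supportive and 7.85% of non-supportive reads.

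**Figure D5:**
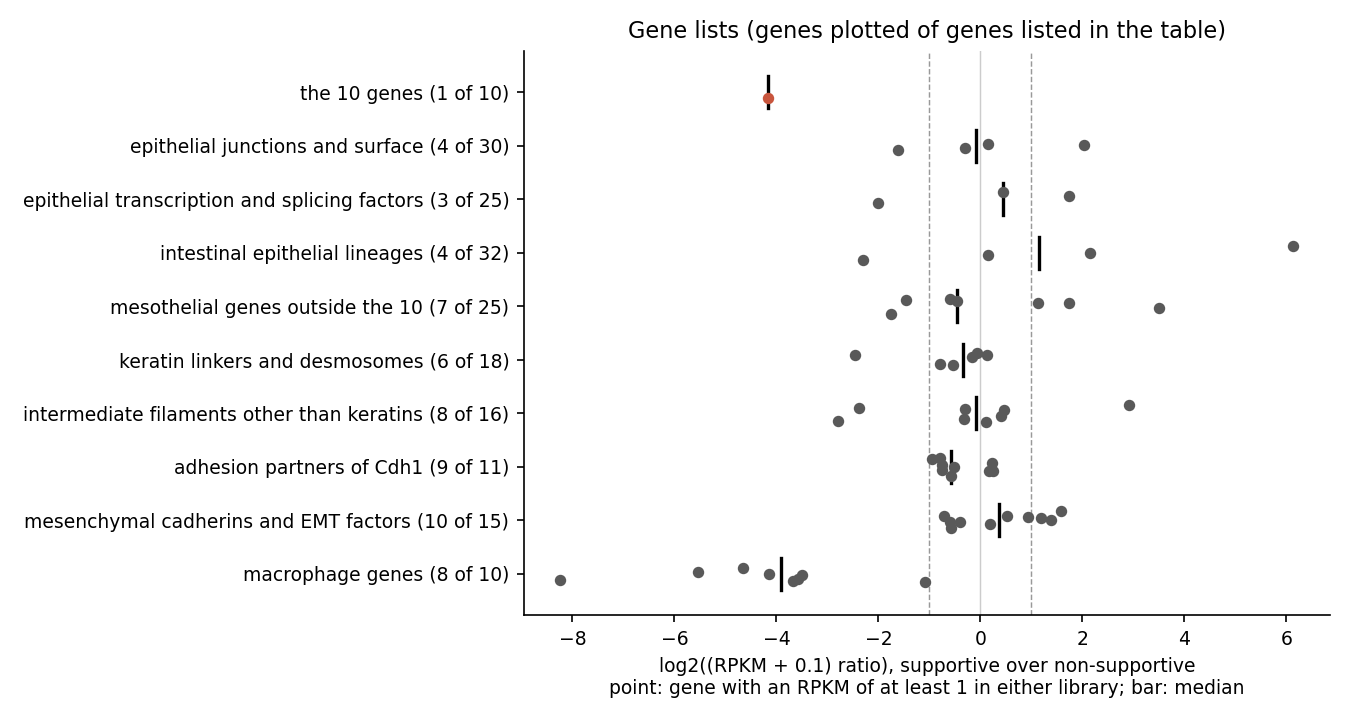
Log2 ratio of supportive over non-supportive RPKM, with 0.1 added to each, for the genes of each list that reached 1 RPKM in either library (points), with the list median (bar), dashed lines at 2-fold and the number plotted of those in the table. Krt20 lies at -4.17, the epithelial lists have 3 or 4 expressed genes on both sides of 0, and the macrophage genes all lie below the line at -1.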

How the data were processed

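RNA of each population was sequenced as 1 library of 50-base single-end reads. According to the methods and the submitters' processing notes, the authors aligned reads to mm9 with TopHat2 2.0.4, kept unique hits with up to 2 mismatches, counted reads unique to a gene with HTSeq 0.5.4p3 and compared libraries with DESeq. The counts deposited are whole reads per gene. The deposited RPKM values divide each count by exon length and library size. The library kit does not mark strand. The deposited log2 ratio, p-value and adjusted p-value columns hold the authors' own comparison and were not used, nor was a second table of Wnt pathway genes.

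The 10 genes and all lists were chosen with earlier results of these data known. A count test such as edgeR's quasi-likelihood or DESeq2 needs replicates, which 1 library per population does not give. RPKM ratios are therefore reported with 95% exact Clopper-Pearson intervals of the reads. Bounds use a floor of 3 reads and take the other count as exact. Log2 ratios have a pseudocount of 0.1, and a difference is 2-fold with at least 1 RPKM in either library. Alternatives were pseudocounts of 1 and 0.001, a minimum of 5 RPKM or none, a 4-fold threshold, and rescaling by the median ratio, by edgeR 4.0.16 TMM factors, by DESeq2 1.42.0 size factors, or without mitochondrial reads. Genes named are the 10, the identity genes, neighbours, paralogs, other keratins at 1 RPKM, and in each list up to 5 by level and 3 by ratio. Other genes named within a list as having 0 reads, and Krt10, were chosen after their values were seen. Some genes that the rule names are not reported here.

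Coordinates are those of GENCODE vM1 on mm9 and were not mixed with those of the RefSeq promoters (GRCm38.p6). The deposited length equals the annotated exon union for 6 of the 10 genes (not Krt7, Krt19, Wt1 and Cdh1). Windows of 50 bases were compared with the whole genome on both strands, allowing 2 mismatches. The steps were tested on simulated data. R 4.3.3 and Python 3.11.15 were used, with numba 0.67.0, scipy 1.17.1, pandas 2.3.3, numpy 2.4.6 and matplotlib 3.10.9.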

Additional observations from a re-analysis of the deposited data

How the results depend on the processing

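For the 5 genes with reads in both libraries, none of 20 rescaled ratios changed direction. This was no real check of them, because the scalings shifted the median of all expressed genes only slightly and toward supportive ISEMFs. Krt7 was already higher there, and the others differed by 7.20-fold or more. An added pseudocount cannot turn a direction, and neither can scaling where a library has 0 reads. Over all 10 genes there were 60 recalculations. Each was set against the counting interval as computed with 0.1 added, and 38 stayed inside it and 22 left it. Of the 22, 14 came from the pseudocount. A changed pseudocount alters the scale of the ratio, so these 14 cannot be read as departures from the intervals printed above. The other 8 came from the scaling, only in genes with 0 reads in a library (Krt8, Krt18, Msln, Upk3b and Epcam), where the interval ends at the value itself. The count of genes past 2-fold among the 10 was 1, became 0 at a minimum of 5 RPKM, where no gene is left and no median can be given, and 5 without a minimum. Their median log2 ratio, -4.17 and that of Krt20 alone, was -0.41 without a minimum, -1.94 with a pseudocount of 1 and -5.28 with 0.001. Over the whole table, 1844 genes passed 2-fold, 1199 with a pseudocount of 1, 878 at a minimum of 5 RPKM, 3660 without a minimum and 659 at 4-fold. The other scalings moved the median of all expressed genes from -0.07 to at most 0.01. No paired analysis was possible because each population has 1 library. Depth limits Krt8, Msln, Epcam and Wt1, with at most 7 reads in a library, and unique counting limits Krt8 further. Neither library has a replicate, so leaving one out was not possible.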
